A study of Caenorhabditis elegans with 2 samples.

Results

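The genes described are the astacin metalloproteases of *C. elegans*, taken by symbol as all genes named *nas-* with a number, together with *hch-1* and *toh-1*, and without *dpy-31*. This gave 39 of the 46904 genes in the table. *dpy-31*, the astacin that trims the ends of cuticle procollagen, was therefore not counted, but its values are given for comparison. The symbol *nas-2* is shared by 2 identifiers on chromosome V (2358801 to 2360543 and 2466762 to 2468504), each with 819 bases of exon in 3 blocks, and both were kept.

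Astacins are secreted zinc metalloproteases named after a digestive enzyme of the crayfish. Each has a catalytic domain with a zinc-binding site, made as an inactive precursor whose prodomain has to be removed, and many carry further domains behind it. Nematodes have an unusually large set of these genes, which *C. elegans* names *nas* (nematode astacin). Some act on the cuticle at the moult, when a larva makes a new cuticle under the old and sheds the old, some act in the pharynx, and others are thought to help digest food. Their numbering follows the layout of the proteins. In general *nas-6* to *nas-15* carry toxin-like ShK domains and *nas-16* to *nas-30* carry EGF-like and CUB domains. *nas-33* to *nas-38* carry a thrombospondin type 1 domain as well, and *nas-39* is the relative of the tolloid and BMP1 proteases. Single genes may differ from the layout of their group, which was not checked here.

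RNA was sequenced from whole wild-type N2 hermaphrodites that were raised from synchronized L1 larvae on *L. plantarum*, a diet on which larvae arrest early. Both groups also received a trace of live *E. coli*, 0.2 µl of culture. It was either the wild-type strain BW25113 or a mutant of the same background in which *pdxH*, the gene for the last enzyme of vitamin B6 (pyridoxal phosphate) synthesis, is replaced by a kanamycin cassette. The paper reports that larval growth on *L. plantarum* recovered with the wild-type trace, while worms given the *pdxH* mutant trace arrested early. A difference in diet and a difference in growth therefore cannot be told apart in these libraries. The worms of both groups were collected at the same stage according to the study's methods, which do not give their age. There was 1 library for each diet, so no value has a replicate, no test of the diet was possible, and a difference between diets and a difference between 2 cultures cannot be told apart.

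The library of worms given wild-type *E. coli* held 40707752 reads and that of worms given the *pdxH* mutant 46372171, a ratio of 1.14, so equal levels give slightly more reads in the second. Differences are therefore given as the log2 ratio of the mutant diet to the wild-type diet after scaling by library size, and 1 is added to each deposited value, in which 1 read is worth 1.23 and 1.08. Brackets hold the 95% interval of the log2 ratio, which covers counting error only. A gene is called lower or higher where even the end of the ratio nearest to no change, with 1% of the counting distribution beyond it, is past -0.5 or 0.5. This follows the GFOLD rule of the study's methods and compares 2 libraries. In each pair of values, wild-type *E. coli* comes first and the *pdxH* mutant next. Calls are counted among genes whose reads in both libraries add up to at least 20.

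Of the 39 astacin genes, 29 had at least 20 reads, and 15 of these were lower with the *pdxH* mutant while none was higher. Among all 15777 genes with as many reads, 5.22% were called lower and 0.805% higher. The log2 ratios of the 29 genes ran from -2.23 for *nas-27* to 0.52 for *nas-39*. Their median was -0.75, against 0.01 over all 15777 genes. *nas-27* reached 20 reads through the wild-type library alone. With at least 100 reads, 13 of 26 astacin genes were lower and none was higher, against 5.52% lower and 0.801% higher of all genes at that depth. The reads of the 39 genes added up to 630.6 and 443.6 RPM (reads per 1000000 reads of the library), which is 1.42-fold lower with the mutant. In whole worms, fewer cells that express a gene and less RNA per cell cannot be told apart.

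The size of the spread between cultures is not known, and the calls depend on it. Where biological variation was assumed to have a coefficient of variation (CV) of 0.1 on top of the counting error, 8 of the 15 genes were still lower (*nas-4*, *nas-12*, *nas-14*, *nas-15*, *nas-23*, *nas-27*, *nas-36* and *nas-37*). Of all genes 3.06% were lower and 0.196% higher at this CV. With a CV of 0.2 the count was 1, *nas-27*, against 0.913% of all genes lower and 0.0254% higher. With 0.3 it was 0, against 0.387% and 0.00634%.

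Other call rules moved the count in both directions. A threshold of 1 in place of 0.5 left 4 lower astacin genes, *nas-15*, *nas-23*, *nas-27* and *nas-37*, where 1.96% of all genes were lower and 0.057% higher. Here too *nas-27* was in the count only through its reads in the wild-type library. A threshold of 0 gave 19 lower and 3 higher, where 21.6% and 22.3% of all genes were called. The ratio past 0.5 with no allowance for counting error gave 17 lower and 1 higher, *nas-39*, against 10.7% and 7.93%. A binomial test on the reads, which compares the libraries and not the diets, called the same 17 lower and *nas-39* higher, against 8.32% and 4.32%. Centring the ratios on the median of genes with at least 100 reads left the 15 calls as they were, against 5.31% and 0.754%.

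**Figure D1:**
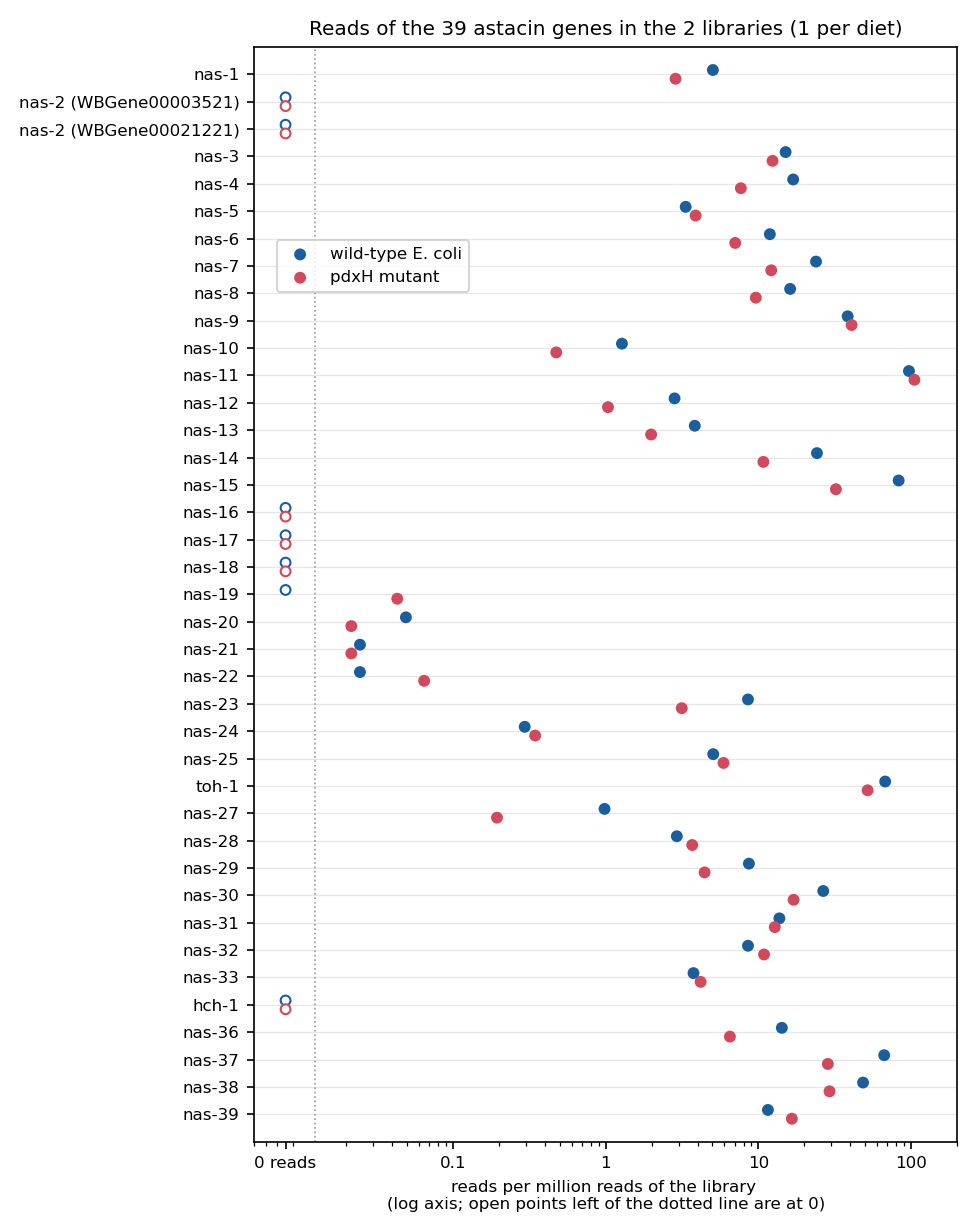
Reads of each astacin gene per 1000000 reads of its library (log axis), in order of gene number, with 1 point per library, blue for wild-type *E. coli* and red for the *pdxH* mutant. Open points left of the dotted line had no read. The points of *nas-16* to *nas-22* lie at 3 reads or fewer, while *nas-11* had the most reads of the 39 genes in both libraries.

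*nas-36*, *nas-37* and *nas-38*, which have known roles at the moult, were called lower with the *pdxH* mutant. *nas-37* (WBGene00003553, chromosome X, 9944844 to 9949063, minus strand), which larvae need to shed the old cuticle, had 2715 and 1322 reads. Its log2 ratio was -1.23 [-1.32 to -1.13], 2.34-fold lower. *nas-36*, which is also required for normal shedding of the cuticle, had 580 and 302 reads, for a log2 ratio of -1.13 [-1.33 to -0.93]. *nas-38*, an astacin known to influence the sleep-like rest of larvae before each moult, had 1974 and 1356 reads, for a log2 ratio of -0.73 [-0.83 to -0.63]. *nas-33*, numbered in the same group, had 153 and 194 reads, for a log2 ratio of 0.15 [-0.15 to 0.46], so no difference from 0 was detectable at this depth.

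*dpy-31* (chromosome III, 7202206 to 7207664) is required for the maturation of the cuticle collagen SQT-3. Its 4168 and 4531 reads gave a log2 ratio of -0.07 [-0.13 to -0.01], and it was not called. The transcript of its substrate *sqt-3* went from 39151 to 16812 reads, a log2 ratio of -1.41 [-1.43 to -1.38]. The transcript of the protease was thus nearly level between the libraries where that of the collagen was not. Protein was not measured.

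The genes from *nas-6* to *nas-15* held the most calls, 8 of 10, with a median log2 ratio of -0.96. Over all genes with at least 20 reads 5.22% were called lower and the median was 0.01. *nas-6* and *nas-7* are needed for the pharyngeal grinder, the cuticle plates that crush bacteria and are rebuilt at each moult. *nas-6* (chromosome IV) had 484 and 327 reads, for a log2 ratio of -0.75 [-0.96 to -0.55]. *nas-7* (chromosome II) had 971 and 563 reads, for a log2 ratio of -0.97 [-1.12 to -0.82]. Both were called lower, *nas-6* by a small margin, since its end nearest to no change was -0.51.

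*nas-15* (WBGene00003534, chromosome X, 777721 to 780533, plus strand) had the largest difference in RPM of the family. Its reads went from 3377 to 1493, and its log2 ratio was -1.36 [-1.45 to -1.28]. *nas-14* followed with 985 and 500 reads, for a log2 ratio of -1.16 [-1.32 to -1.01]. *nas-12* had 115 and 48 reads, a log2 ratio of -1.43 [-1.93 to -0.96]. The intervals of *nas-12*, *nas-14* and *nas-15* overlap, those of *nas-14* and *nas-15* by little. Overlap alone does not place a difference within the counting error. The order among these genes was not tested.

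The other genes of this group called lower were *nas-8*, with 657 and 446 reads, for a log2 ratio of -0.75 [-0.92 to -0.57], *nas-13* and *nas-10*. *nas-13* had 156 and 92 reads (-0.94 [-1.32 to -0.58]) and was close to the threshold, with its nearest end at -0.51. *nas-10* had 52 and 22 reads (-1.39 [-2.14 to -0.71]), and the width of its interval reflects these few reads. *nas-9* and *nas-11* stood apart from the group. *nas-9* had 1565 and 1892 reads, for a log2 ratio of 0.09 [-0.01 to 0.18], and *nas-11* had 3944 and 4878 reads, for a log2 ratio of 0.12 [0.06 to 0.18]. Both were measured deeply enough that a decrease of the size seen in *nas-15* lies far outside their counting intervals.

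**Figure D2:**
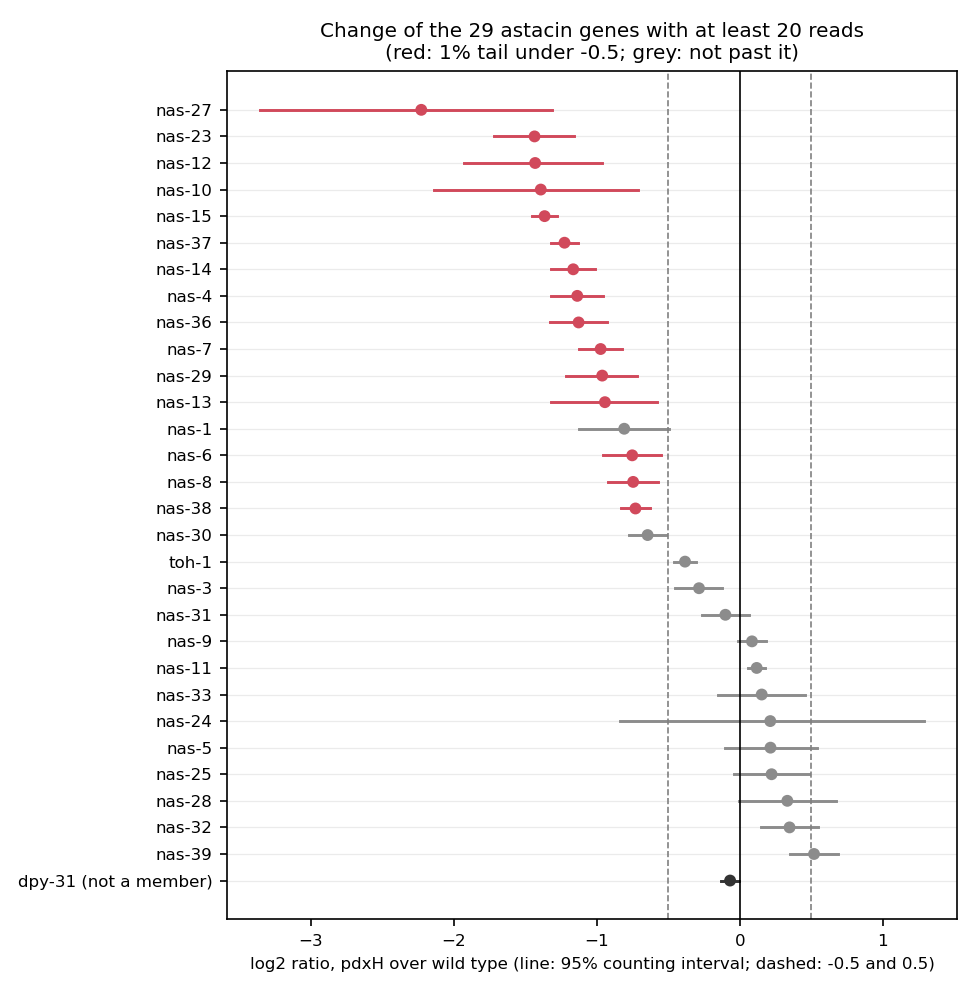
Log2 ratio of each of the 29 astacin genes with at least 20 reads, *pdxH* mutant over wild-type *E. coli*, with its 95% counting interval as a line, and *dpy-31* for comparison. Red marks the 15 genes whose 1% tail lies under -0.5 (dashed line). *nas-27* is lowest at -2.23 with a wide interval, and *nas-39* is highest at 0.52.

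Among *nas-1* to *nas-5*, which have a bare catalytic domain with few additions, 1 of the 4 genes with enough reads was lower. The share over all genes with enough reads was 5.22%. *nas-4* (chromosome III, 6411578 to 6415656) had 688 and 356 reads, for a log2 ratio of -1.14 [-1.32 to -0.95]. *nas-1* had 205 and 133 reads, for a log2 ratio of -0.81 [-1.13 to -0.50], and with its nearest end at -0.44 it was not called. *nas-3* had 614 and 574 reads (-0.28 [-0.45 to -0.12]) and *nas-5* had 136 and 180 reads (0.22 [-0.10 to 0.54]). Neither copy of *nas-2* had a read in either library. If the copies are near-identical, reads that map to both may have been dropped in counting, and how such reads were treated is not given in the sources used here.

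The genes from *nas-16* to *nas-30* were split. Without *toh-1* there are 14 of them, of which 7 had at least 20 reads, and 3 of these were lower, against 5.22% of all genes. *nas-27* (chromosome II, 1175925 to 1179323) had 40 and 9 reads, for a log2 ratio of -2.23 [-3.35 to -1.31]. *nas-23* (chromosome II, 7491267 to 7493699) had 348 and 146 reads, for a log2 ratio of -1.44 [-1.72 to -1.16]. *nas-29* had 353 and 206 reads, for a log2 ratio of -0.96 [-1.21 to -0.72]. *nas-27* has the lowest ratio of the family, but it reached 20 reads through the wild-type library alone. Its interval overlaps that of *nas-23*, and the order of the pair was not tested.

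*nas-30*, with 1083 and 789 reads, missed the call with a log2 ratio of -0.64 [-0.78 to -0.51] and a nearest end of -0.49. *nas-25* had 206 and 274 reads (0.22 [-0.04 to 0.48]), and *nas-28* had 2.92 and 3.69 RPM (0.33 [-0.002 to 0.67]). *nas-24* had 12 and 16 reads (0.21 [-0.84 to 1.29]). The intervals of these 3 genes reached 0, and that of *nas-24* is too wide to tell a decrease from an increase. The median of the group was -0.64 over the 7 genes and -0.10 over all 11 of its genes with any read.

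Neither tolloid-like gene was called. *nas-39* (WBGene00003555, chromosome X, 16456927 to 16471333, plus strand), the closest relative of BMP1 and the longest astacin here with 3480 bases of exon, had 470 reads on the wild-type diet and 768 on the mutant diet. Its log2 ratio of 0.52 [0.35 to 0.69] was the highest of the family, but its nearest end of 0.32 is under the threshold. *toh-1* (chromosome III, 3804772 to 3809030), named for its likeness to tolloid and BMP, had 2756 and 2408 reads, for a log2 ratio of -0.38 [-0.46 to -0.30], which is below 0 but short of the threshold. *nas-32* had 348 and 505 reads, for a log2 ratio of 0.35 [0.15 to 0.55], and *nas-31* had 559 and 594 reads, for a log2 ratio of -0.10 [-0.27 to 0.07]. Only *nas-11*, *nas-32* and *nas-39* of the 29 genes had a 1% tail above 0.

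**Figure D3:**
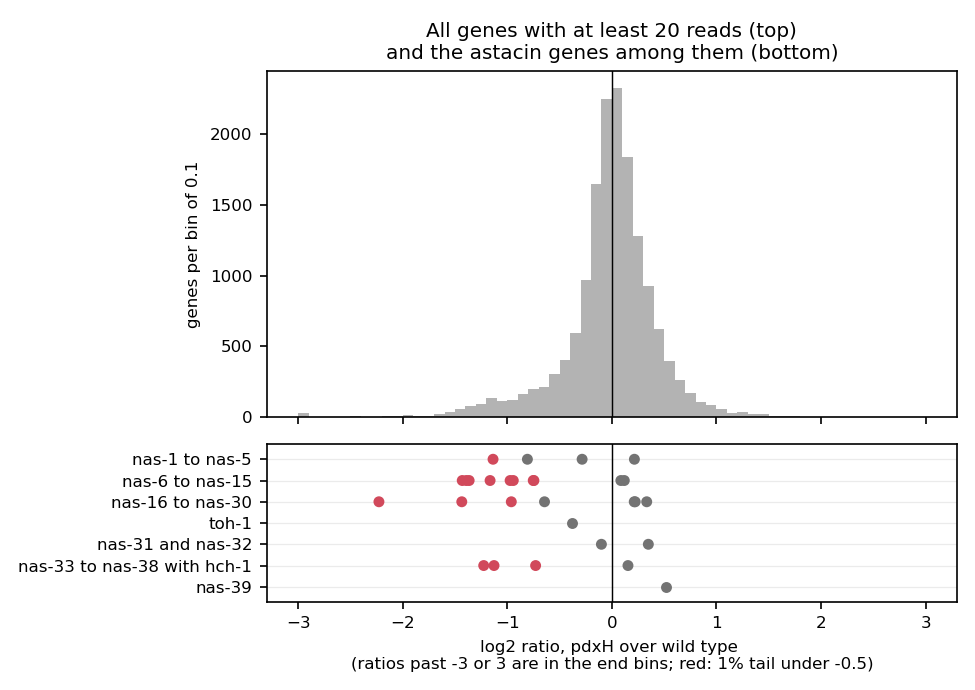
Top, the number of genes in each bin of 0.1 of the log2 ratio, *pdxH* mutant over wild-type *E. coli*, for the 15777 genes with at least 20 reads. Bottom, the 29 astacin genes on the same axis by numbered group, red where called lower. The bulk of all genes lies around 0.01, while 8 of 10 genes from *nas-6* to *nas-15* lie on the left.

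Of the 39 genes, 6 had no read in either library, and 4 more had at most 3. A count of 0 allows up to 3 reads, which is 0.0737 RPM on the wild-type diet and 0.0647 RPM on the mutant diet. *hch-1* (chromosome X), the hatching enzyme that digests the eggshell, had 0 reads in both libraries. The other 0 counts were the *nas-2* copies, *nas-16*, *nas-17* and *nas-18*. *nas-19* had 0 and 2 reads, *nas-20* had 2 and 1, *nas-21* had 1 and 1, and *nas-22* had 1 and 3, so no change can be read from them.

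The genes from *nas-16* to *nas-22* lie together on chromosome V, between 11392320 and 11478007, a span of 85688 bases. All 7 were at or under 3 reads in both libraries, with 4 and 7 reads in all. The calls were also unevenly spread over the chromosomes. Chromosome V carries 14 of the 39 astacin genes, and none of the 5 with at least 20 reads (*nas-3*, *nas-9*, *nas-24*, *nas-31* and *nas-32*) was lower. On the other chromosomes 15 of 24 were. All 4 genes on chromosome IV (*nas-6*, *nas-8*, *nas-12* and *nas-14*) and 4 of 5 on chromosome II were called, as were 5 of 8 on chromosome X, 1 of 4 on chromosome III and 1 of 3 on chromosome I. These numbers are small and are given as a description. Over all chromosomes together 5.22% of genes with at least 20 reads were called lower. The share of all genes called was not counted for each chromosome, so a trait of the astacins and one of the chromosomes cannot be told apart.

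Levels of different genes were set side by side per length, as RPKM (reads per kilobase of exon per 1000000 reads). With wild-type *E. coli* the highest were *nas-11* at 54.5, *toh-1* at 42.4 and *nas-15* at 40.9, followed by *nas-37* at 26.2, *nas-9* at 21.3 and *nas-38* at 21.1. *dpy-31*, the astacin left out of the count, would have been next to *nas-11* at 49.2. With the *pdxH* mutant *nas-11* was still first of the members at 59.2 and *toh-1* still second at 32.5, with *dpy-31* (47.0) again left out. *nas-9* came next at 22.6 RPKM, ahead of *nas-15* at 15.9, *nas-38* at 12.7 and *nas-37* at 11.2. So *nas-15* and *nas-37* lost places to *nas-9*, and *nas-39* moved from 3.32 to 4.76. The lowest levels among the 29 genes were 0.193 and 0.226 for *nas-24* and 0.607 and 0.120 for *nas-27*.

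The shares of the family's reads also differed between the libraries. *nas-11* held 15.4% of the reads of the 39 genes with wild-type *E. coli* (95% exact Clopper-Pearson interval 14.9 to 15.8) and 23.7% with the mutant (23.1 to 24.3). *nas-15* held 13.2% (12.7 to 13.6) and 7.26% (6.91 to 7.62). *nas-37* held 10.6% (10.20 to 10.96) and 6.43% (6.10 to 6.77). The intervals of each of these genes do not overlap between the libraries, and they cover counting error only. Shares of the other members are not given here. A share also depends on the reads of the other members, so a higher share need not mean a higher level. The level of *nas-11* itself went from 96.9 to 105.2 RPM, a log2 ratio of 0.12. The sum of the family went from 630.6 to 443.6 RPM.

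**Figure D4:**
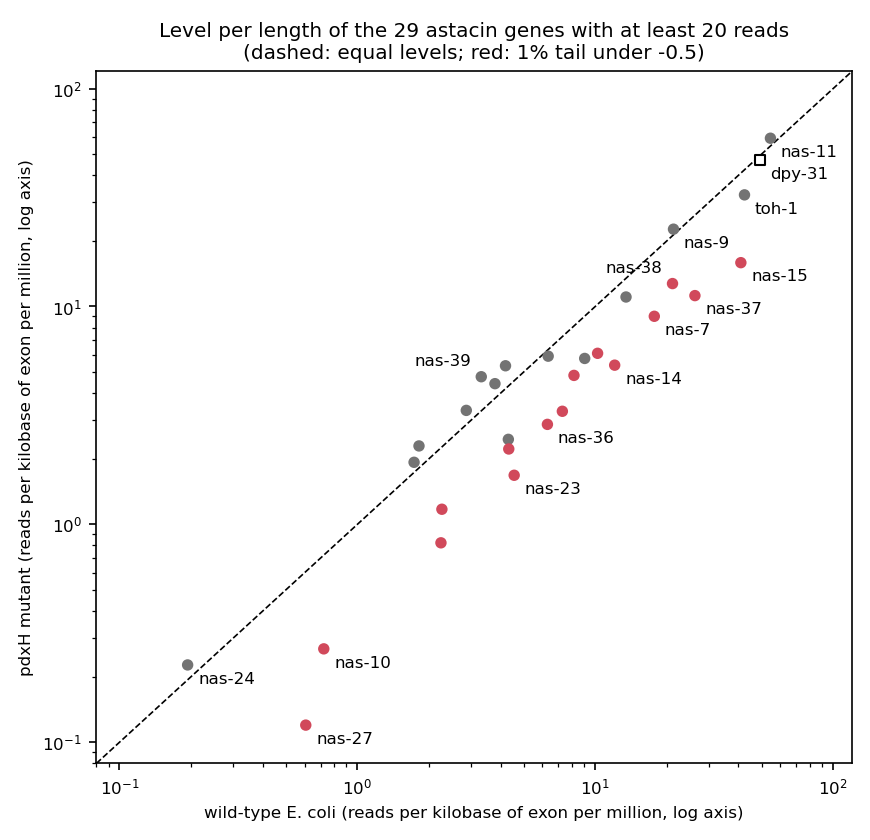
Level per length of the 29 astacin genes with at least 20 reads, in reads per kilobase of exon per 1000000 reads, with wild-type *E. coli* (x axis) and with the *pdxH* mutant (y axis), both on log axes. The dashed line marks equal levels, red points are genes called lower and the open square is *dpy-31*. *nas-15* (40.9 and 15.9) and *nas-37* (26.2 and 11.2) lie below the line, and *nas-11* (54.5 and 59.2) lies just above it.

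Several astacin genes share exon bases with a neighbour, and whether strand was used in counting is not given in the sources used here, so their reads are uncertain. *nas-4* shares 437 exon bases with C05D11.5 on the same strand, which had 528 and 486 reads. *nas-39* shares 276 with F38E9.1 on the same strand, which had 412 and 536 reads. On the opposite strand *nas-11* shares 163 bases with *smf-2* (9 and 5 reads) and *nas-12* shares 60 with F01G10.6 (367 and 325 reads). *nas-13* shares only 17 bases with F39D8.3, which had 258 and 128 reads. *nas-15*, *nas-23*, *nas-27*, *nas-36* and *nas-38* overlap no other gene of the annotation. *nas-37* shares 32 bases with C17G1.5, which had 437 and 537 reads.

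Other secreted and cell-surface metallopeptidases were listed by symbol (the *zmp*, *adt* and *nep* genes, *gon-1* and *mig-17*). Of the 25 with at least 20 reads, 4 were lower and none was higher, against 5.22% and 0.805% of all genes. Their median log2 ratio was -0.37. With at least 100 reads the median was -0.14. The lower genes were *zmp-5* (45 and 18 reads), *adt-1* (2891 and 2034 reads), *adt-3* (997 and 630 reads) and *nep-16* (313 and 194 reads). The difference between this list and the astacins was not tested.

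Genes that work with astacins at the moult or on collagen were listed in the same way, *dpy-31* and *sqt-3* included. Of 28 genes, 13 were lower and none was higher, with a median log2 ratio of -0.36. Among all genes with at least 20 reads 5.22% were lower and 0.805% higher. The moulting gene *mlt-10* had 6672 and 2444 reads (-1.64), the protease inhibitor gene *mlt-11* had 19047 and 7957 (-1.45), and *bli-5*, another inhibitor gene, had 153 and 80 (-1.11). *lin-42*, the period-like gene that paces the moults, had 8660 and 4188 reads (-1.24). Of the 5 transcription factor genes of the list, *myrf-1* was called lower (7864 and 6080 reads, -0.56, nearest end -0.50). The rest were not called, with -0.45 for *grh-1*, -0.27 for *nhr-23*, -0.26 for *blmp-1* and -0.07 for *nhr-25*. The genes of enzymes that modify collagen differed in direction. The prolyl hydroxylase subunit genes *dpy-18* and *phy-2* had 0.31 and -0.19, *pdi-2*, which encodes their partner, had 0.12, and none was called. *mlt-7*, which encodes a peroxidase that cross-links the cuticle, was called lower (6335 and 4627 reads, -0.64). The part of the moulting cycle in the astacin values was not tested.

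Marker genes of tissues were read beside the astacins. All markers of these lists found in the table had reads in both libraries. Their counts stand against 5.22% lower and 0.805% higher of all genes with at least 20 reads. Each list is short, so 1 call moves its share a lot. The 5 pharyngeal muscle genes were not called, with a median log2 ratio of 0.18 and summed levels of 1869 and 1867 RPM. Of the 6 pharyngeal gland genes 3 were lower, with a median of -0.88 and a sum of 319.4 and 194.5 RPM. Of the 6 epidermal genes 2 were lower (-0.27, 405.3 and 311.0 RPM), and *nhr-23* is in this list as well. Of the 8 intestinal genes 1 was lower (-0.25, 5151 and 4166 RPM), and of the 6 germline genes 4 were lower (-0.71, 272.8 and 183.8 RPM). None of the 6 neuronal genes (0.21, 461.6 and 514.0 RPM) or of the 6 body wall muscle genes (-0.22, 8972 and 7691 RPM) was called. The part of these tissues in the astacin values was not tested.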

How the data were processed

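The authors trimmed paired reads with Trimmomatic, mapped them to ce11 with STAR 2.5.3a, used HTSeq for the reads of each gene, and ran GFOLD 1.1.4 on the pair of libraries. The deposited signal values, named RPKM by GFOLD, are reads scaled by library size alone, since every gene was given a length of 20 bases. The table also holds the authors' own fold changes and error rates, which were not used. Dividing by the value of 1 read (1.23 and 1.08) gave whole reads for 100% of values up to 20 reads and for 97.8% and 97.6% of all values above 0 (within 0.02), and the reads summed to the header totals.

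Intervals and the 1% tail come from the Beta distribution of the share of reads (SciPy 1.17.1). An exact binomial test on the reads, adjusted by Benjamini-Hochberg over all genes with reads, compares the libraries and not the diets. With a log2 ratio past 0.5 it called 1312 of 15777 genes lower and 682 higher. The statistics were tested on simulated reads drawn with counting error only, the same error that the intervals assume. That test says nothing about the spread between cultures. Positions and exon lengths come from the Ensembl annotation of WBcel235, the assembly also named ce11, which holds 46817 of the 46904 identifiers, and 44017 had a symbol. The members and lists were chosen with earlier results of these data known. Values are written out for members called with at least 100 reads, those with a known role, the 3 of highest level per length, and *dpy-31*. The values of the other members, beyond that rule, are given more briefly, and overlapping neighbours were picked from the annotation afterwards. Protein and promoter sequences were not analysed here.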

Additional observations from a re-analysis of the deposited data

How the results depend on the processing

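No paired analysis was possible because neither diet was sequenced more than once, and for the same reason no fit could leave out a library. The main rule gave 15 lower and 0 higher astacin genes, against 5.22% and 0.805% of all genes. A threshold of 1 on the 1% tail gave 4 lower (*nas-15*, *nas-23*, *nas-27* and *nas-37*), against 1.96% of all genes. A threshold of 0 gave 19 lower and 3 higher, against 21.6% and 22.3% of all genes. The log2 ratio past 0.5 without allowance for counting error gave 17 lower and 1 higher, as did the binomial test. Both added *nas-1* and *nas-30* to the 15 and called *nas-39* higher. Of all genes, the ratio alone called 10.7% lower and 7.93% higher, and the binomial test 8.32% and 4.32%. An assumed CV of 0.1 gave 8 lower, 0.2 gave 1 and 0.3 gave 0, each by a wider allowance for error. Of all genes 3.06%, 0.913% and 0.387% were lower at these CVs. Centring on the median of genes with at least 100 reads gave 15 and 0, against 5.31% and 0.754% of all genes. The median of the members stayed between -0.76 and -0.73 over its 4 alternatives. The log2 ratios of the 29 members kept within their counting intervals with a pseudocount of 0.1 and with centring (58 of 58 values). Centring moves every ratio by only 0.01, and the pseudocount matters only at few reads, where the intervals are wide. This count was therefore all but fixed in advance and does not show that the ratios are stable. The filter on reads moved some medians of groups and lists. Over all genes with any read, that of *nas-16* to *nas-30* was -0.10 in place of -0.64. For the other metallopeptidases it was -0.44 over genes with any read and -0.14 over those with at least 100 reads, in place of -0.37. The 3 highest levels per length were the same genes as TPM. Within a library RPKM and TPM differ only by a constant factor. Their order could not have differed, so this comparison does not test the ranking. Depth limits the genes under 100 reads most (*nas-10*, *nas-24* and *nas-27*).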

Other observations

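The 15 other protein-coding genes within the span of *nas-16* to *nas-22* on chromosome V were mostly transcribed, as 12 of them had at least 20 reads in the 2 libraries together. *mig-17*, an ADAMTS-type metalloprotease gene with a role in gonad migration, lies among them with 406 and 434 reads, for a log2 ratio of -0.09 (95% counting interval -0.29 to 0.10). The acetylcholine receptor subunit genes *deg-3* (798 and 934 reads) and *des-2* (762 and 858 reads) had log2 ratios of 0.04 and -0.02. The collagen gene *col-156* had 1374 and 310 reads, a log2 ratio of -2.33 (-2.51 to -2.16), and the amino acid transporter gene *aat-6* had 282 and 214 reads, a log2 ratio of -0.58 (-0.84 to -0.33). These neighbours were chosen by position after the astacin values had been seen, and their values are given without an explanation.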
